A study of Rattus norvegicus with 17 samples.

Results

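The brush border is the dense layer of microvilli on the urinary side of proximal tubule cells. The 9 genes described here encode its peptidases Anpep, Mme, Dpep1, Dpp4, Mep1a and Mep1b, the glutathione-cleaving enzyme Ggt1, the microvillus actin bundler Vil1 and the membrane scaffold Pdzk1. They were matched by exact gene symbol in the gene and isoform tables of both surgery comparisons, and all 9 were found among 27200 symbols, each with 1 row per gene table. Left kidney RNA was sequenced from 17 male Sprague Dawley rats on 0.4% Dyets chow, operated on at 10 weeks of age and sampled 6 weeks later. In the 5/6Nx group (n = 6) all of the right and most of the left kidney was excised, in the 1/3Nx group (n = 6) most of the left kidney was removed and the right one kept, and the sham group (n = 5) kept both. No other treatment was given. The RNA came from bulk kidney tissue, so that fewer proximal tubule cells and less RNA per cell cannot be told apart.

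Apical peptidases cut filtered peptides and peptide hormones into amino acids that the proximal tubule takes back. Gamma-glutamyl transferase removes the glutamyl group from filtered glutathione, and the dipeptidase Dpep1 then splits the remaining cysteinylglycine. Villin bundles actin inside each microvillus, and Pdzk1 holds phosphate, urate and organic ion transporters at the apical membrane.

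The authors deposited 1 FPKM value (fragments per kilobase of transcript and per unit of mapped fragments) for each group and table, so the spread between rats behind each value was not analysed here. The error of each comparison is carried by the deposited p-value and q-value (threshold 0.05), and a test statistic is given beside them. Whether rats of the 2 groups overlapped in level cannot be read from such values. Sham values of the same rats were 2.01 times higher in the 1/3Nx table than in the 5/6Nx table (median over 12563 features), and the 9 genes had ratios of 2.00 to 2.01, so levels are compared only within a table. Libraries held 59.0 to 103.6 M reads (M stands for mega). Mapping was 62.6% and 77.2% in 5/6Nx replicates 3 and 5, which stood apart, and 84.8% to 90.5% in the other libraries. Their share in the 5/6Nx values below was not tested.

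The promoter of Pdzk1, 1 of 4 members with a lower value in 1/3Nx at an unadjusted p under 0.05, is shown as the one among the 9 that holds the core letters of the HNF4 site, a proximal tubule factor's. Windows come from RefSeq on build GRCr8 and run from 250 bases before to 50 bases after the annotated start, and all 9 genes had one. That of Pdzk1 is at chr2:187064745-187065044 on the plus strand. Capitals mark CAAAGTC or its reverse complement (the core of the HNF4 site).
Pdzk1: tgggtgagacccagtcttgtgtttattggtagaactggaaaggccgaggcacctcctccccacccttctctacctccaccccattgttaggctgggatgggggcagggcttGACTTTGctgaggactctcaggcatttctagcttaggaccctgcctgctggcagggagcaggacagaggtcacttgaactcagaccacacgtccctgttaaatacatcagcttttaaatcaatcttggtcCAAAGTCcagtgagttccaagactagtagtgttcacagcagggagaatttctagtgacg

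The HNF4 core starts 9 and 139 bases before the Pdzk1 start, the farther one on the opposite strand. It is present in 1 of 9 member promoters and in 4.61% of 33469 rat promoters of the same length. It and the strings below were searched on both strands, after the expression values had been seen. The longer HNF4 string CAAAGTCCA, which overlaps the core, occurs in Pdzk1 and in 0.391% of promoters. The letters AGATAA, a string bound by a family of zinc finger factors, occur in 11.6% of promoters and in 0 of 9 members. The AP-1 letters TGANTCA occur in 7.33% of promoters and in 0 of 9 members. The core promoter string TATAAA occurs in 14.2% of promoters and likewise in 0 of 9 members. TTTATG (CDX factors, 12.7%) occurs in Mep1a, and GGGCGG (GC box, 33.1%) in Mme and Vil1. A match describes letters and is not evidence of binding.

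In sham kidney the 9 genes covered a wide range of levels, all on the FPKM scale, which is per length. Ggt1 was the highest at 1905 FPKM in the 1/3Nx table, rank 45 among named genes. Pdzk1 followed at 503 FPKM and Anpep at 369 FPKM. Dpp4 had 246 FPKM, Mep1a 142 FPKM and Mme 115 FPKM. The lowest were Mep1b at 42.4 FPKM, Vil1 at 23.2 FPKM and Dpep1 at 12.9 FPKM. This order was the same in the sham column of the 5/6Nx table, which stands for the same rats. No spread over rats is at hand, so neighbours in the order are not shown to differ. Ggt1 alone made up 56.7% of the summed FPKM of the 9 genes in sham. Defining markers of proximal tubule were high in the same column, with Slc34a1 at 1801 FPKM, Lrp2 at 132 FPKM and Cubn at 29.9 FPKM. Of 8 small intestine markers with a row, Fabp2, Alpi and Cdx1 were listed at 0, and Lct, Cdx2 and Apoa4 were under 1 FPKM. The other markers were Slc5a1 at 10.3 FPKM and Vil1, itself a member, at 23.2 FPKM.

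**Figure D1:**
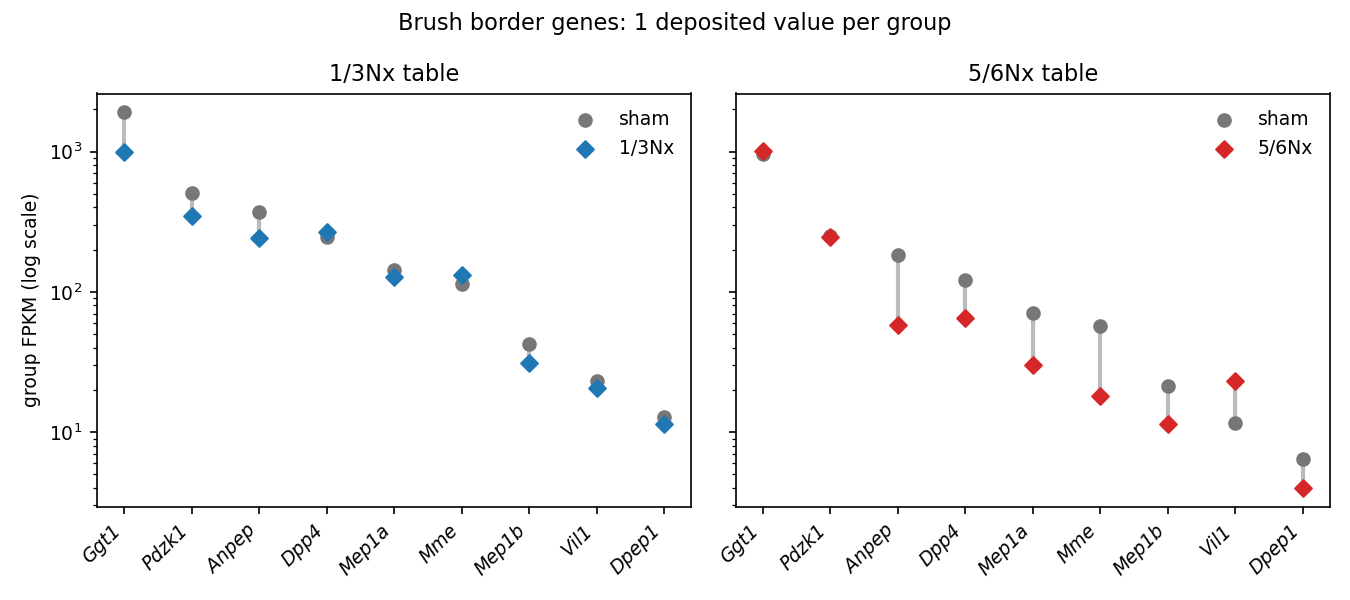
Group FPKM (log scale) of the 9 genes in sham (grey circles) and surgery (coloured diamonds), 1 deposited value per group, with the 1/3Nx table on the left and the 5/6Nx table on the right. Sham values are about 2.01 times higher on the left for the same rats, so only the 2 points joined by a line are comparable; Ggt1 went from 1905 to 994 FPKM on the left and from 955 to 1002 FPKM on the right.

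The first comparison asks how these genes stood in a left remnant whose partner kidney was intact. Ggt1 fell, and the other 8 genes did not pass. Ggt1 went from 1905 FPKM in sham to 994 FPKM in 1/3Nx, or 52.2% of sham (-0.94 on the log2 scale, p = 0.00095, q = 0.0202 per the authors' deposited table). The call held when q-values were recomputed over named features (0.0158) and over named features with at least 1 FPKM in sham (0.0181). Of the members 1 of 9 was called, against 8.33% of 13326 named features called in either direction and 2.63% called lower (9.31% in either direction on recomputing), so the count itself is near the background. The authors list the Ggt1 feature on chromosome 20 from 14019708 to 14025080. The build behind the positions in these tables is not settled, since the processing notes name rn5 and some sequence names belong to a later assembly.

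Among the exopeptidases, Anpep, which trims amino acids from the N terminus of peptides, had 369 FPKM in sham and 243 FPKM in 1/3Nx (-0.60 on the log2 scale, p = 0.0206, q = 0.177 per the authors' deposited table). Its feature lies on chromosome 1 from 141561333 to 141604273. Dpp4, which removes N-terminal dipeptides and inactivates incretins, had 246 and 268 FPKM (0.12 on the log2 scale, q = 0.871 per the authors' deposited table). Dpp4 was therefore slightly higher and Anpep lower, neither past the threshold. Dpep1 had 12.9 and 11.5 FPKM (-0.17 on the log2 scale, q = 0.790 per the authors' deposited table). The Dpp4 feature is on chromosome 3 from 48291054 to 48372672 and that of Dpep1 on chromosome 19 from 55982739 to 55998829.

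None of the endopeptidases passed. Mme, or neprilysin, which cleaves natriuretic peptides among other substrates, had 115 FPKM in sham and 131 FPKM in 1/3Nx (0.19 on the log2 scale, q = 0.819 per the authors' deposited table). Mep1a and Mep1b encode the subunits of meprin, a metalloprotease of the brush border. Mep1a had 142 and 127 FPKM (-0.17 on the log2 scale, q = 0.772), and Mep1b had 42.4 and 31.3 FPKM (-0.44 on the log2 scale, p = 0.0404, q = 0.251) per the authors' deposited table. Both subunits thus had lower values, Mep1b to 73.8% and Mep1a to 88.9% of sham. The features are on chromosome 2 from 153799453 to 153902227 for Mme, chromosome 9 from 20048120 to 20077702 for Mep1a and chromosome 18 from 15063078 to 15089988 for Mep1b.

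Of the structural genes, Pdzk1 had 503 FPKM in sham and 350 FPKM in 1/3Nx (-0.52 on the log2 scale, p = 0.0257, q = 0.195 per the authors' deposited table). Vil1 had 23.2 and 20.6 FPKM (-0.17 on the log2 scale, q = 0.864 per the authors' deposited table). The Pdzk1 feature is on chromosome 2 from 198965684 to 198999323 and that of Vil1 on chromosome 9 from 81689801 to 81783127. An unadjusted p under 0.05 was found for 4 of 9 genes, Ggt1, Anpep, Pdzk1 and Mep1b, all lower, and 8.48% of named features were lower at that level. Values were lower for 7 of 9 genes with a median log2 fold change of -0.17, beside 51.0% lower and a median of -0.01 over 11256 named features with at least 1 FPKM in sham. Among the 5857 named features with at least 10 FPKM in sham, 66.2% were lower with a median of -0.15, close to the values of the 9 genes.

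**Figure D2:**
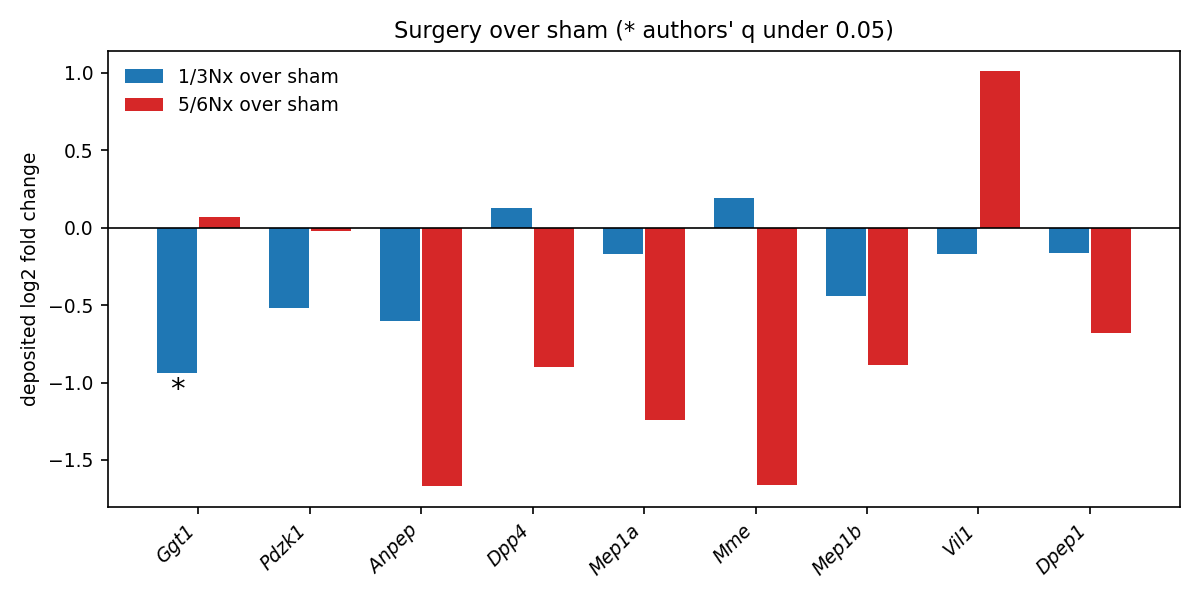
Deposited log2 fold change of surgery over sham for each gene, ordered by sham FPKM, with 1/3Nx in blue and 5/6Nx in red and an asterisk where the authors' q is under 0.05. The asterisk is on Ggt1 in 1/3Nx (-0.94); the most negative bars are Anpep (-1.67) and Mme (-1.66) in 5/6Nx, which did not pass. Both colours share the same sham rats.

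The second comparison asks how the genes stood when the remnant was the only kidney tissue. None of the 9 genes passed in the authors' test, 0 of 9 had an unadjusted p under 0.05, and 0 of 9 passed on recomputing q over named features, where Mme had a q of 0.578 and Anpep of 0.745. In the background 8.10% of 14452 named features were called (4.09% on recomputing), but these were nearly all higher: 0.0900% were called lower and 0.194% were lower at an unadjusted p under 0.05. A fall was thus rarely called for any named gene in this table. The authors' adjustment here ran over 103823 tested features, named or not, of which 60264 were called. The FPKM values of all features in this table summed to 417302 in sham and 6.27e+06 in 5/6Nx, against 835136 and 698814 in sham and 1/3Nx in the other table. The part of this shift in the 5/6Nx values of the 9 genes and in their unnamed transcripts was not tested. The smallest absolute log2 fold change called among named features with at least 1 FPKM in sham was 1.54 here and 0.62 in 1/3Nx. The log2 fold change divided by its test statistic had a median of 3.29 over such features here and 0.612 in 1/3Nx. For the 9 genes this ratio ran from 2.64 to 8.87 here and from 0.505 to 0.857 in 1/3Nx. The deposited p-values did not follow the order of the test statistics. In 5/6Nx Mep1b had a statistic of -0.318 (p = 0.665) and Dpp4 one of -0.299 (p = 0.225) per the authors' deposited table. The ratio is thus a description and is not read as the error behind the p-values.

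Peptidase values were lower. Anpep had 184 FPKM in sham and 57.9 FPKM in 5/6Nx, or 31.5% of sham (-1.67 on the log2 scale, p = 0.108, q = 0.168 per the authors' deposited table). Mme had 56.9 and 18.0 FPKM, or 31.6% of sham (-1.66 on the log2 scale, p = 0.0670, q = 0.112 per the authors' deposited table). Both differences were larger in size than 1.54, the smallest called in either direction among named features with at least 1 FPKM in sham, and neither passed. Of 10068 such features 171 were called, and 10 were called lower. Mep1a had 70.8 and 29.98 FPKM (-1.24 on the log2 scale, q = 0.377), and Mep1b 21.2 and 11.5 FPKM (-0.89 on the log2 scale, q = 0.725) per the authors' deposited table. Dpp4 had 122 and 65.4 FPKM (-0.90 on the log2 scale, q = 0.285), and Dpep1 6.43 and 4.01 FPKM (-0.68 on the log2 scale, q = 0.507) per the authors' deposited table. All 6 peptidase genes were at 31.5% to 62.3% of sham.

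The other 3 genes did not have lower gene values beyond a few percent. Ggt1 had 955 FPKM in sham and 1002 FPKM in 5/6Nx (0.07 on the log2 scale, q = 0.955 per the authors' deposited table). Pdzk1 had 251 and 247 FPKM (-0.02 on the log2 scale, q = 0.991 per the authors' deposited table). Vil1 had 11.5 and 23.2 FPKM (1.01 on the log2 scale, q = 0.602 per the authors' deposited table). Over the 9 genes, 7 of 9 were lower with a median log2 fold change of -0.89, beside 64.2% lower and a median of -0.20 over 10067 named features with at least 1 FPKM in sham. Among the 3873 named features with at least 10 FPKM in sham, 68.8% were lower with a median of -0.22. Dpep1, at 6.43 FPKM in sham, lies under this cutoff. Sham values were 2.01 times higher in the 1/3Nx table, so a cutoff in FPKM, here and below, takes in fewer features in 5/6Nx. Relative to the median of -0.20, Pdzk1 turned from -0.02 to 0.17.

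The isoform tables split each gene into annotated transcripts, which carry an Ensembl identifier and the gene name, and unnamed transcripts of the same locus, assembled by the authors. Each isoform table lists 33 transcripts for the 9 genes, 14 annotated and 19 unnamed. None of 13 tested annotated transcripts passed in 1/3Nx, where 2 were lower at an unadjusted p under 0.05, and 0 of 13 passed in 5/6Nx, where 0 were. Of the unnamed transcripts 0 of 12 passed in 1/3Nx and 0 of 11 in 5/6Nx, with 1 in each at an unadjusted p under 0.05. Over all tested isoforms, named or not, 1.72% were called in 1/3Nx and 49.6% in 5/6Nx. In 5/6Nx the one at an unadjusted p under 0.05 was a minor Mme transcript (1.71 and 0.143 FPKM, p = 0.0429, q = 0.0852 per the authors' deposited table). Over named isoforms 3.13% were called in 1/3Nx and 5.22% in 5/6Nx, and 4.71% and 0.0663% were lower at an unadjusted p under 0.05. The splits below are therefore descriptions of group values.

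Ggt1 was carried by 1 annotated and 1 unnamed transcript whose values lay on opposite sides of sham in 5/6Nx, and neither passed in either table. The annotated one had 314 FPKM in sham and 138 FPKM in 5/6Nx (-1.19 on the log2 scale, q = 0.489), while the unnamed one had 641 and 865 FPKM (0.43 on the log2 scale, q = 0.814) per the authors' deposited table. The unnamed transcript's share of the gene was 67.1% in sham and 86.2% in 5/6Nx. In 1/3Nx both had lower values: 629 and 440 FPKM for the annotated one (-0.52 on the log2 scale, q = 0.945) and 1276 and 554 FPKM for the unnamed one (-1.20 on the log2 scale, p = 0.0150, q = 0.356) per the authors' deposited table. There the unnamed share was 67.0% in sham and 55.7% in 1/3Nx. The Ggt1 feature spans 5.37 kb in these tables, and which part of the gene the unnamed transcript covers was not analysed here.

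Vil1 was also split in 5/6Nx. Its annotated transcript had 11.5 FPKM in sham and 6.58 FPKM in 5/6Nx (-0.81 on the log2 scale, q = 0.676 per the authors' deposited table). The unnamed transcript was at essentially no FPKM in sham and in 1/3Nx and at 16.6 FPKM in 5/6Nx, where it made up 71.6% of the gene value (p = 0.246 per the authors' deposited table). The higher gene value of Vil1 in 5/6Nx was thus the unnamed transcript's. The Vil1 feature spans 93.3 kb, the authors' interval for all transcripts merged there.

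The peptidases with unnamed transcripts had lower summed values in both kinds of transcript in 5/6Nx, by unequal amounts. Within Mme 1 tested unnamed transcript was higher (0.830 and 2.11 FPKM, 1.35 on the log2 scale, q = 0.451 per the authors' deposited table), at 1.46% of the gene in sham and 11.7% in 5/6Nx. For Mep1a the annotated transcript had 48.0 and 15.1 FPKM (-1.67 on the log2 scale) and the unnamed one 22.9 and 14.9 FPKM (-0.62) per the authors' deposited table. For Dpep1 the annotated transcript had 2.72 and 1.05 FPKM (-1.37) and the unnamed one 3.71 and 2.96 FPKM (-0.33) per the authors' deposited table. Summed over annotated transcripts, Mme went from 17.1 to 3.48 FPKM, or 20.4% of sham, and Dpp4 from 27.2 to 10.2 FPKM, or 37.7% of sham. Unnamed transcripts held 70.0% of Mme and 77.8% of Dpp4 in sham and 80.6% and 84.3% in 5/6Nx. Anpep had 2 annotated transcripts and no others, with 80.8 and 26.1 FPKM for one (-1.63 on the log2 scale) and 103 and 31.9 FPKM for the other (-1.70) per the authors' deposited table. In 1/3Nx the same Anpep transcripts had log2 values of -0.24 and -0.98 (q = 0.999 and 0.654 per the authors' deposited table).

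**Figure D3:**
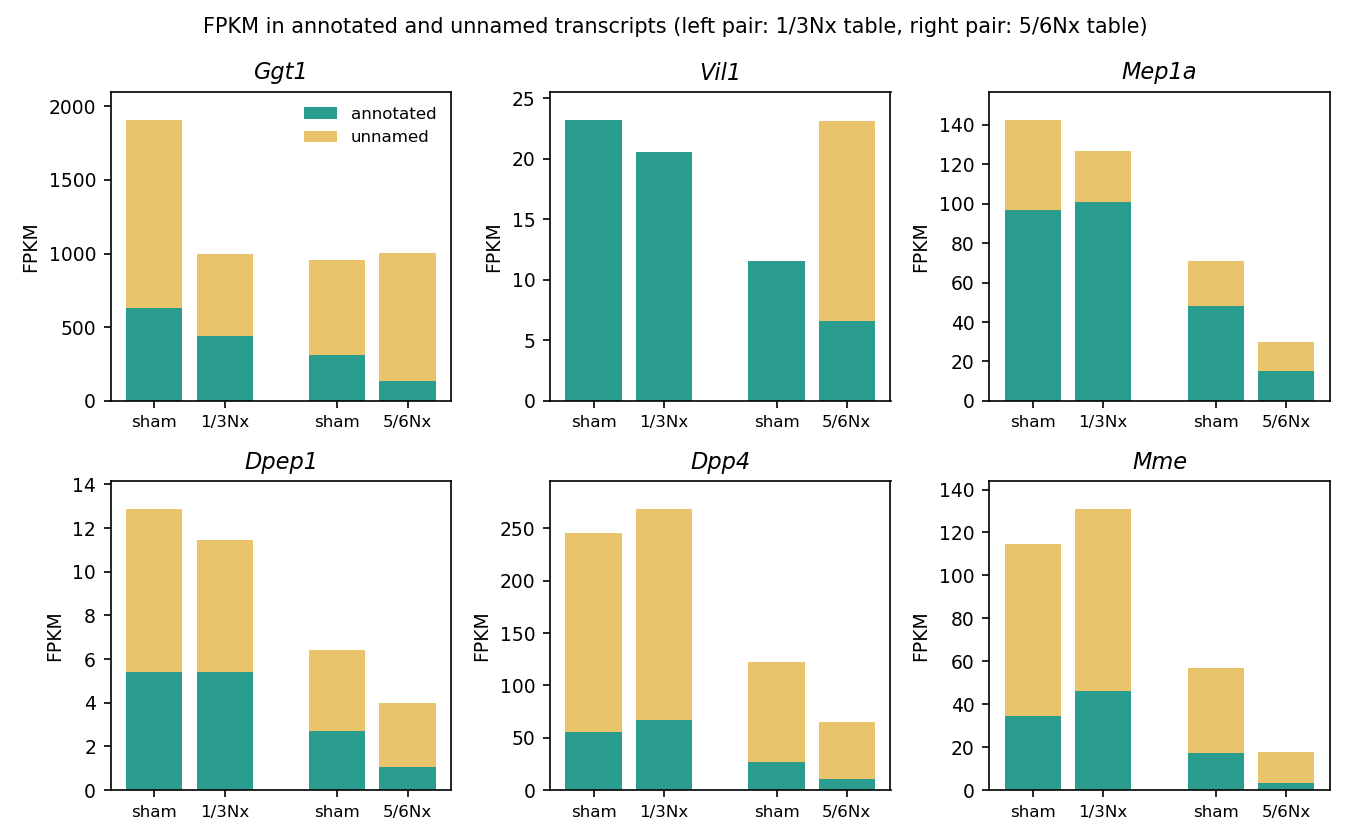
FPKM of annotated (green) and unnamed (yellow) transcripts of 6 genes, stacked, with sham and 1/3Nx from the 1/3Nx isoform table in the left pair of bars and sham and 5/6Nx from the 5/6Nx table in the right pair. In 5/6Nx the annotated part is smaller than in sham for all 6 genes (for Ggt1 138 against 314 FPKM), while the unnamed part is larger for Ggt1 and Vil1.

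Counting annotated transcripts alone, a choice made after the data were seen, 9 of 9 genes had lower values in 5/6Nx, from -2.30 for Mme to -0.02 for Pdzk1, with a median log2 ratio of -1.37. Over 3768 genes with at least 10 FPKM in sham and annotated transcripts, 73.4% were lower, with a median of -0.34. In 1/3Nx 6 of 9 were lower with a median of -0.17, beside 53.7% and -0.04 over 5679 such genes. Ggt1 and Vil1 were the 2 members whose gene value and annotated value had opposite signs in 5/6Nx, which was the case for 14.1% of the 3768 genes. An unnamed share higher by over 20 percentage points in 5/6Nx than in sham, as in Vil1, was found in 5.59% of 3866 genes.

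The 2 surgeries share their sham rats, so the values of each are set side by side without a test. The peptidase genes (6 of 9 members) had a more negative log2 fold change in 5/6Nx than in 1/3Nx, with differences of 5/6Nx minus 1/3Nx of -1.85 for Mme (-1.66 against 0.19), -1.07 for Mep1a, -1.06 for Anpep, -1.03 for Dpp4, -0.52 for Dpep1 and -0.45 for Mep1b. Ggt1, Vil1 and Pdzk1 had the less negative or more positive value in 5/6Nx, with differences of 1.01, 1.18 and 0.50. On annotated transcripts 8 of 9 were more negative in 5/6Nx, with differences of -0.67 for Ggt1 and -0.63 for Vil1, and Pdzk1 remained the exception at 0.50.

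Other genes of the brush border were read from lists chosen with earlier results of these data known. Of 9 measured other hydrolases and peptide carriers, 0 passed in 1/3Nx, where 4 had an unadjusted p under 0.05, and 0 passed in 5/6Nx, where 0 did. All 9 had lower values in 5/6Nx, with a median log2 fold change of -0.99, against 6 of 9 and -0.25 in 1/3Nx. Among named features with at least 10 FPKM in sham, a cutoff applied within each table, 68.8% were lower in 5/6Nx (median -0.22) and 66.2% in 1/3Nx (median -0.15). An unadjusted p under 0.05 in either direction was found for 21.3% of named features in 1/3Nx and 10.5% in 5/6Nx. Enpep, the aminopeptidase that trims angiotensin, had 91.5 and 101 FPKM in 1/3Nx (q = 0.826) and 45.5 and 33.3 FPKM in 5/6Nx (q = 0.679) per the authors' deposited table.

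Microvillus genes fell in 1/3Nx in 4 of 13 cases, and 9 did not pass. In 5/6Nx 0 of 13 passed, and 0 had an unadjusted p under 0.05. The 4 were Baiap2l2, a membrane-bending protein of microvilli (49.6 to 23.9 FPKM, -1.05 on the log2 scale, q = 0.00183), and the actin bundler Espn (247 to 129 FPKM, -0.93, q = 0.00471) per the authors' deposited table. Also past it were Calml4 (487 to 286 FPKM, -0.77, q = 0.0179) and Ush1c (157 to 96.4 FPKM, -0.71, q = 0.0152), parts of the links between microvillus tips, per the authors' deposited table. The list median was -0.39 in 1/3Nx and -0.22 in 5/6Nx. Over all named features 2.63% were called lower in 1/3Nx and 0.0900% in 5/6Nx, so a fall was rarely called in 5/6Nx for any list.

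Partners that Pdzk1 binds, or relatives of the scaffold, fell in 3 of 11 cases in 1/3Nx and in 0 of 11 in 5/6Nx, where 0 had an unadjusted p under 0.05. They were the urate transporter gene Slc22a12 (329 to 170 FPKM, -0.96 on the log2 scale, q = 0.00183), Pdzk1ip1 (851 to 510 FPKM, -0.74, q = 0.0398) and the phosphate transporter gene Slc34a3 (67.7 to 41.3 FPKM, -0.71, q = 0.0380) per the authors' deposited table. Slc34a1, the main phosphate transporter gene, did not pass (1801 and 1042 FPKM, -0.79, q = 0.183 per the authors' deposited table). All 11 had lower values in 1/3Nx, with a median of -0.51. In 5/6Nx 9 of 11 were lower with a median of -0.27. Named features with at least 10 FPKM in sham were lower in 66.2% of cases in 1/3Nx and 68.8% in 5/6Nx, with medians of -0.15 and -0.22. Since 2.63% of all named features were called lower in 1/3Nx and 0.0900% in 5/6Nx, the called counts do not show a difference between the surgeries.

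Around Ggt1 in the glutathione cycle, 1 of 10 genes fell in 1/3Nx and 1 of 10 rose in 5/6Nx. The fall was Ggct, the cyclotransferase that acts on gamma-glutamyl amino acids (628 to 310 FPKM, -1.02 on the log2 scale, q = 0.00183 per the authors' deposited table). The rise was Ggt6, a Ggt1 relative (0.547 to 4.07 FPKM, 2.89, q = 0.0124 per the authors' deposited table), whose q was 0.140 on recomputing over named features. With 0.547 FPKM in sham, Ggt6 was counted as measured in 5/6Nx only through its 5/6Nx value. Gclc, which catalyses the first step of glutathione synthesis, had 694 and 181 FPKM in 5/6Nx (-1.94, q = 0.254 per the authors' deposited table), a value named after it was seen. Among all named features 2.63% were called lower in 1/3Nx and 8.01% higher in 5/6Nx.

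Of 8 measured proximal tubule transcription factor genes, 0 passed in either table, with 2 and 0 at an unadjusted p under 0.05 in 1/3Nx and 5/6Nx. Over named features 8.33% and 8.10% were called, and 21.3% and 10.5% had an unadjusted p under 0.05. Cdx2, also on this list, was not measured, and its values are given with the small intestine markers. Hnf4a had 163 and 134 FPKM in 1/3Nx (-0.28 on the log2 scale, q = 0.609) and 81.1 and 48.6 FPKM in 5/6Nx (-0.74, q = 0.456) per the authors' deposited table.

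**Figure D4:**
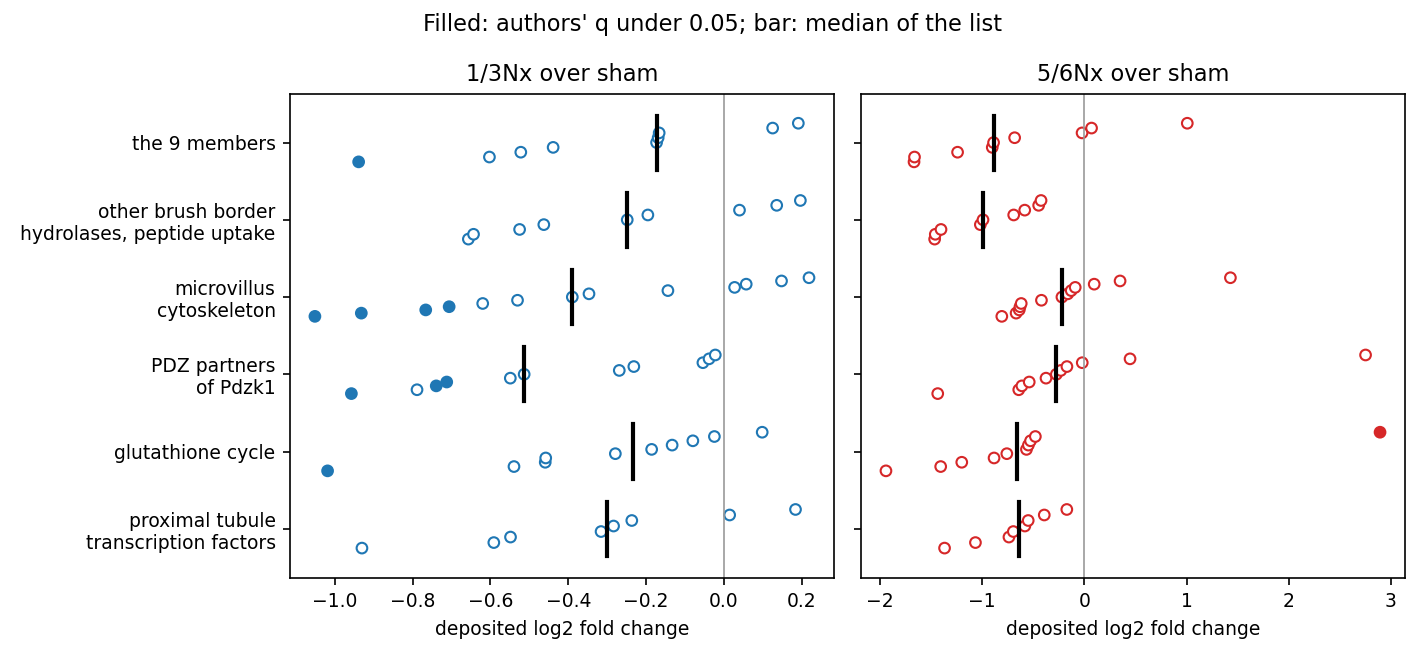
Deposited log2 fold changes of the 9 genes and of measured members of 5 brush border lists, 1/3Nx on the left and 5/6Nx on the right (the horizontal scales differ), with filled points at an authors' q under 0.05 and a bar at each median. In 1/3Nx the filled points are Ggt1, 4 microvillus genes, 3 Pdzk1 partners and Ggct; in 5/6Nx the filled point is Ggt6.

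Some markers of other cells and tissues passed, most of them in 1/3Nx, and the part of such cells and tissues in the results above was not tested. In 1/3Nx 2 of 11 proximal tubule markers fell (Slc22a6, -0.81, and Slc13a3, -0.72, per the authors' deposited table), all 11 had lower values, and their summed level was 10529 FPKM in sham and 7365 FPKM in 1/3Nx. In 5/6Nx 0 of 11 passed and 0 had an unadjusted p under 0.05, 8 of 11 were lower, and the sum was 5254 and 4088 FPKM. Named features were called lower in 2.63% of cases in 1/3Nx and 0.0900% in 5/6Nx. With at least 10 FPKM in sham, 66.2% and 68.8% of them had lower values. The summed level of the 9 brush border genes was 64.8% of sham in 1/3Nx and 86.9% in 5/6Nx, where Ggt1 made up 68.7% of it. The endocytic receptor genes did not pass: Lrp2 was at -0.29 in 1/3Nx (q = 0.696) and -0.68 in 5/6Nx (q = 0.717), and Cubn at -0.21 (q = 0.724) and -0.07 (q = 0.976), per the authors' deposited table. Slc34a1 had 899.6 and 799 FPKM in 5/6Nx (-0.17 on the log2 scale, q = 0.901 per the authors' deposited table).

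Dpp4 is also expressed by T cells and Anpep and Mme by stromal or myeloid cells. Of 8 macrophage markers 7 rose in 1/3Nx (summed 315 to 810 FPKM) and 0 of 8 passed in 5/6Nx (157 and 375 FPKM), with 0 at an unadjusted p under 0.05. Lymphocyte markers rose in 4 of 7 measured cases in 1/3Nx (13.5 to 41.8 FPKM, summed over all 8 listed genes with a row), and 0 of 5 measured passed in 5/6Nx (6.73 and 20.3 FPKM over the same 8), with 1 at an unadjusted p under 0.05. All 6 measured fibroblast markers rose in 1/3Nx (119 to 362 FPKM, summed over all 7 with a row) and 0 of 6 passed in 5/6Nx (59.5 and 154 FPKM over the same 7), with 1 at an unadjusted p under 0.05. In the background 5.70% of named features were called higher in 1/3Nx and 8.01% in 5/6Nx. Pancreatic acinar markers rose in 9 of 9 cases in 1/3Nx (1.58 to 767 FPKM) and in 3 of 9 in 5/6Nx (0.789 to 511 FPKM), of which 1 held on recomputing q over named features. Liver markers rose in 3 of 7 measured cases in 1/3Nx and 1 of 2 in 5/6Nx. A marker was measured by its mean over sham and surgery, so some, among them all pancreatic ones, were counted only through their surgery value. So was the liver marker that rose in 5/6Nx, Fgb (0.498 and 8.83 FPKM). Of the unmeasured liver markers, Alb, Apoa1 and Ttr had lower values in 5/6Nx and Apoa2, Serpina1 and Ahsg higher ones, all under 1 FPKM in both groups. Small intestine markers passed in 0 of 2 measured cases in both, with Fabp2 listed at 0 in all groups. These 2 were Vil1, itself a member, and Slc5a1, also on the S3 list, so the count cannot speak to intestinal tissue. Cdx2, not measured, had 0.0320 and 1.01 FPKM in 5/6Nx (q = 0.0507 per the authors' deposited table). Lct, Apoa4, Alpi and Cdx1 were under 1 FPKM in all groups.

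Markers of the late proximal tubule, the S3 segment, had 1 fall among 7 in 1/3Nx, Slc22a13 (7.66 to 1.90 FPKM, -2.01 on the log2 scale, q = 0.00183 per the authors' deposited table). In 5/6Nx Slc22a13 fell (3.82 to 0.404 FPKM, -3.24, q = 0.0290) and Rnf24 rose (0.255 to 6.21 FPKM, 4.60, q = 0.00599) among 8, per the authors' deposited table. Both lost the call on recomputing over named features, with a q of 0.252 and 0.0769. Rnf24 was counted among the 8 only through its 5/6Nx value. In 1/3Nx, with 0.517 and 0.636 FPKM, it was not measured. The share of named features called lower was 2.63% in 1/3Nx and 0.0900% in 5/6Nx, and 8.01% were called higher in 5/6Nx. Slc7a13, an abundant S3 transporter gene, had 585 and 81.6 FPKM in 5/6Nx (-2.84, q = 0.191 per the authors' deposited table), also named after its values were seen. Among distal nephron markers 0 of 7 passed in either table, with 3 and 0 at an unadjusted p under 0.05.

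Among 3865 named genes with at least 10 FPKM in sham in both tables, the 5 closest to the members' pair of medians (-0.17 in 1/3Nx and -0.89 in 5/6Nx) were Adi1, Nnt, Mpc1, Zfp706 and Osbpl1a. Their Euclidean distances over the 2 log2 fold changes were 0.018 to 0.034. Adi1 is an enzyme of methionine salvage, Nnt the mitochondrial transhydrogenase and Mpc1 a subunit of the mitochondrial pyruvate carrier. With 2 comparisons that share sham rats, this likeness is a description of position only.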

How the data were processed

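Total RNA of left kidneys was read as paired ends on an Illumina HiSeq, per the labels' protocols, which also call the libraries small RNA. The submitters' processing notes name rn5, cutadapt, FastQC, TopHat2 2.1.1, StringTie and Cufflinks 2.2.1, with no roles. The authors deposited FPKM values, 1 per group and table, with log2 fold changes, a test statistic (a score), p-values and q-values per the file headers; the unit FPKM was read from the column layout. They also deposited read counts, for each library the percent of mapped reads and of bases at quality 30, with an average quality score. The planned limma fit could not be made on group values, so the authors' tests are reported. Rows with several gene names (628) were shifted in the gene tables and were parsed by their status cell. Benjamini-Hochberg q-values were recomputed over named features (Python 3.11.15, pandas 2.3.3). The same code run over all tested features differed from the deposited q-values by at most 5.25e-07, and was tested on simulated data. List members were counted as measured when their mean FPKM over sham and surgery was at least 1. They were named past q under 0.05, up to 4 per list by smallest p, with Lrp2, Cubn, Slc34a1, Hnf4a and Enpep always. Some genes of the lists and some promoter strings are not reported here. Markers of other cell types are mostly given as counts and sums. The members, lists and tests were chosen with earlier results of these data known. Nothing says which rats were processed together. Counting error per library was not available for the group values, and read depth (59.0 to 103.6 M reads) was used only as a description.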

Additional observations from a re-analysis of the deposited data

Results flagged for a closer look

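The read number of 5/6Nx replicate 5, 103.6 M reads (M stands for mega), lay far above the other 5 libraries of its group. Its gap to the next library was larger than Dixon's 95% limit for 6 values, a limit that chance passes in about 1 in 20 groups. Its mapping rate was 77.2%. The 5/6Nx values of the brush border genes without this library were not analysed here.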

How the results depend on the processing

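No paired analysis was possible because the labels give the groups no shared replicate numbers, and leaving out single libraries was not run because each table holds 1 value per group. The counts of called members (1 and 0 in the gene tables, 0 and 0 in the isoform tables, 1/3Nx first) were the same when q-values were recomputed over named features, and in the gene tables also with at least 1 FPKM in sham or with a threshold of 0.1. The median log2 fold change of the 9 genes in 1/3Nx, -0.17, was -0.29 on the highest isoform of any kind. In 5/6Nx the median of -0.89 was -0.69 after recentring on the median of named features (-0.20), and -1.37 on the highest annotated isoform or on the sum of annotated isoforms. The median difference of 5/6Nx minus 1/3Nx, -0.52, was -0.42 with a pseudocount of 1 FPKM, -0.33 after recentring and -1.06 on summed annotated isoforms. Signs turned for Mep1a in 1/3Nx, at 0.063 on its highest annotated isoform, its highest isoform of any kind and the annotated sum. They turned in 5/6Nx for Ggt1 (-1.19 on the highest annotated isoform and on the annotated sum), for Vil1 (-0.81 on all 3 isoform settings) and for Pdzk1 (0.17 after recentring). In these cases the isoform settings count some of a gene's transcripts and recentring subtracts a median, and no other cause was tested. The isoform sums, the settings with unnamed isoforms and the 3 alternative settings of the difference were chosen after seeing the data.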
